A study of Mus musculus with 13 samples.

Results

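Axon guidance genes encode the ligands and receptors that steer growing axons. They were taken here as the genes whose symbol belongs to the Eph receptors, ephrins, semaphorins of classes 3 to 7, plexins, neuropilins, netrins, netrin-Gs, the netrin receptors Dcc and Unc5, the Slits and the Robos. In all, 65 of the 18562 genes in the 6 peak lists of the study matched, out of 71 RefSeq genes of these families. The other 6 (*Efnb3*, *Epha10*, *Plxnb3*, *Sema3g*, *Sema4a* and *Unc5a*) had no entry in any of the lists. The members comprise 13 Eph receptors, 7 ephrins, 18 semaphorins, 8 plexins, 2 neuropilins, 4 netrins, 2 netrin-Gs, 4 netrin receptors, 3 Slits and 4 Robos.

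A guidance cue binds its receptor on a neighbouring cell or at a distance, and the receptor then remodels the actin cytoskeleton through small GTPases. Ephrins bind Eph receptors, semaphorins bind plexins with neuropilins as co-receptors, netrins bind Dcc and Unc5 proteins, and Slits bind Robo receptors. The same families act outside the nervous system, in epithelial boundaries, in blood vessels and in the branching mammary gland, so both active and silent members can be met in a mammary tumor cell.

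The study profiled chromatin by ChIP-seq in 4T1, a mouse mammary tumor line derived from BALB/cJ mice. Control cells (sg-Ctrl) carried a non-targeting guide RNA, and Cas9 had been expressed in them transiently. Cells without functional *Nup210* (KO) were the single clone KO-N13, made with CRISPR/Cas9 and a guide to *Nup210* and expanded from 1 cell, so that an effect of the clone and an effect of losing NUP210 cannot be told apart. NUP210 is a membrane protein of the nuclear pore. Both cell types were profiled for H3K4me3, a mark of active gene starts, and for H3K27me3, the mark that Polycomb deposits on silent genes, while NUP210 and, with an antibody to several pore proteins, the nuclear pore complex (NPC) were profiled in sg-Ctrl cells. There was 1 library per condition, so no difference below could be tested over replicates, and every interval printed covers counting error alone.

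Sequencing depth in KO was 1.27 times that in sg-Ctrl for H3K4me3 and 3.16 times for H3K27me3, and reads were scaled by these ratios. Of the markers checked, all 7 epithelial genes had H3K4me3 in both libraries, with 280 to 4533 reads in sg-Ctrl. The mark was listed for 1 of 5 neuronal genes (*Map2*, 766 reads), 0 of 3 leukocyte genes and 0 of 2 endothelial genes. The *Nup210* start kept an H3K4me3 peak (885 reads in sg-Ctrl and 913 in KO), so the H3K4me3 lists do not check the knockout. Across the 12193 genes with H3K4me3 in both libraries, the log2 ratio (KO over sg-Ctrl) had a median of -0.50. Genes on chromosomes 4, 5 and 18 stood lower than the rest in KO, with H3K4me3 medians of -0.72 on each and H3K27me3 covered lengths of 0.608, 0.844 and 0.689 times those of sg-Ctrl, and 13 members lie on these chromosomes.

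The promoters of 6 members named in the results below are printed. *Efna3*, *Sema3e* and *Ephb2* had H3K4me3 at their starts and are among the members with the largest differences between the libraries, while *Unc5c*, *Ntng1* and *Slit2* had H3K27me3 along the gene and no H3K4me3. Each covers 250 bases before the start and 50 after it, from RefSeq (GRCm38.p6), 5′ to 3′ in the direction of the gene, with CG dinucleotides in capitals.
Efna3 (chr3:89322890-89323189, - strand): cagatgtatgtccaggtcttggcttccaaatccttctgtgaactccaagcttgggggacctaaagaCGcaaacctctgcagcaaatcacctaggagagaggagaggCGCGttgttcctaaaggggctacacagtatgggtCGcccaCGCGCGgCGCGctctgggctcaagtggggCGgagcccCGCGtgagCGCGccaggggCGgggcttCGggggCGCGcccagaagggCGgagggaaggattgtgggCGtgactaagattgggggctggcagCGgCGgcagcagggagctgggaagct
Sema3e (chr5:14025026-14025325, + strand): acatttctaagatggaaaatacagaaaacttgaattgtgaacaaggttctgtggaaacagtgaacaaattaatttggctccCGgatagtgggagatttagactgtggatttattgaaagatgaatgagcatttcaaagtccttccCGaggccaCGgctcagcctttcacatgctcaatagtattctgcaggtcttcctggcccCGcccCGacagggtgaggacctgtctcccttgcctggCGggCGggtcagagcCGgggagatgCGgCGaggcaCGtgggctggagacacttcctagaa
Ephb2 (chr4:136835963-136836262, - strand): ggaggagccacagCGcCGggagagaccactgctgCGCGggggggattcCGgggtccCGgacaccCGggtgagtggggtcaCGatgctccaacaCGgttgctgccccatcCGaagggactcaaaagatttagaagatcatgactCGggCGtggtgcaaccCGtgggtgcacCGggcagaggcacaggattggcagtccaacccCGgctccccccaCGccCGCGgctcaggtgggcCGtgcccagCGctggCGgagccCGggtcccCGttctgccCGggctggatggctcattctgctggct
Unc5c (chr3:141465314-141465613, + strand): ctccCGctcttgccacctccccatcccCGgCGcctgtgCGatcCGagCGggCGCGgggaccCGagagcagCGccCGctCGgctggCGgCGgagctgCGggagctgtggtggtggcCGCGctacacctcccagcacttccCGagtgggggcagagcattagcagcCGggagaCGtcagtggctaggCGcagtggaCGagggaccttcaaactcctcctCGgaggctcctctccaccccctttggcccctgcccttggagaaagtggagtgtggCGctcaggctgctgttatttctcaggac
Ntng1 (chr3:110143423-110143722, - strand): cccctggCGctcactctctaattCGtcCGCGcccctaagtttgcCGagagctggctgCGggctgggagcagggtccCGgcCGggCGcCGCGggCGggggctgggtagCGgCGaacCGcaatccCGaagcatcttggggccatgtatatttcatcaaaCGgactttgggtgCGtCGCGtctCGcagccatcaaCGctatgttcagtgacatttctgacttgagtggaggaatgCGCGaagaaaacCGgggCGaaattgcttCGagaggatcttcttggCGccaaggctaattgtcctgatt
Slit2 (chr5:47982905-47983204, + strand): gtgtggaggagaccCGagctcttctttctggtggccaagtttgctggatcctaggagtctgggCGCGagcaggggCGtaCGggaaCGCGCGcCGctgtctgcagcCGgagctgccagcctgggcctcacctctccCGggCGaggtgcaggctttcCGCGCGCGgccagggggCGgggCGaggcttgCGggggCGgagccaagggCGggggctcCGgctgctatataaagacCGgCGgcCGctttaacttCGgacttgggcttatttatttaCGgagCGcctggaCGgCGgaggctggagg

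CG dinucleotides, the sites of DNA methylation, were at least as frequent in the second set as in the first, with 22, 11 and 24 in *Efna3*, *Sema3e* and *Ephb2* and 24, 28 and 30 in *Unc5c*, *Ntng1* and *Slit2*. RefSeq promoters were matched for 56 of the 65 members, 54 of them within 1000 bp of the start in the lists. These 54 promoters held a median of 23 CG (range 2 to 56), against 16 in the promoters of all listed genes and 7 in all 32851 RefSeq promoters. The median was 23 in the 33 members with H3K4me3 alone and 21 in the 16 with H3K27me3 alone. The letters GGGCGG, the GC box bound by Sp1 family factors, were searched on both strands, and each match holds 1 of the CG counted. They occurred in 39 of the 54 promoters (72.2%), in 51.3% of the promoters of listed genes and in 35.7% of all promoters. Members with H3K4me3 alone had them in 28 of 33 promoters (84.8%) and members with H3K27me3 alone in 9 of 16 (56.2%). For both counts each member gave 1 promoter, the nearest to its listed start. The sets of listed genes and of all promoters took every entry, so the selection differs.

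The histone marks split the members by family and by length. An H3K4me3 peak within 4 kb of a listed transcript start was found for 44 members in sg-Ctrl (67.7%, against 67.1% of all genes) and for 43 in KO (66.2% against 67%). An H3K27me3 peak on the gene body was listed for 26 members in sg-Ctrl (40%, against 26.8% of all genes) and for 19 in KO (29.2% against 27.6%). Taking either library, 38 members had H3K4me3 alone, 19 had H3K27me3 alone, 7 had both and *Robo2*, a Slit receptor, had neither. Members with H3K4me3 alone had a median length of 24.9 kb and those with H3K27me3 alone of 323 kb. Members were longer than other genes, with a median of 69.0 kb against 18.3 kb, and length moves with the marks. Over 300 kb, 13 of 14 members had H3K27me3 in sg-Ctrl (92.9%, against 70.9% of all genes of that length) and 2 of 14 had H3K4me3 (14.3% against 32.6%). Under 20 kb, 2 of 18 members had H3K27me3 (11.1% against 23.1%) and 16 of 18 had H3K4me3 (88.9% against 65.5%).

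Families are counted here over the members, each of which entered through a listed peak. The 7 listed ephrins, membrane-bound ligands of the Eph receptors, all had H3K4me3 in both libraries and none had H3K27me3. *Efnb3*, an ephrin too, had no entry in any list. The Eph receptors were divided, since 7 of the 13 listed had H3K4me3 in both libraries, *Epha8* had it in sg-Ctrl alone, and *Epha3*, *Epha5*, *Epha6*, *Epha7* and *Ephb1* had H3K27me3 with no H3K4me3. The H3K27me3 calls of *Epha3*, *Epha5* and *Epha7* were weak, at 1.15-fold, 1.31-fold and 1.09-fold over IgG over all sg-Ctrl peaks. *Epha5* and *Epha7* had no listed H3K27me3 peak in KO. The neuropilins and the 4 netrins had a listed H3K4me3 peak in both libraries, as had 6 of the 8 listed plexins. The peaks of *Ntn3* and *Ntn5* did not reach the promoters of these genes. By contrast, none of the 3 Slits and none of the 4 Robos had H3K4me3 in either library, while all 3 Slits and 3 of the 4 Robos had H3K27me3 in both. Among netrin receptors, *Unc5b* had H3K4me3 and *Dcc*, *Unc5c* and *Unc5d* had H3K27me3. The H3K27me3 calls of *Unc5d* (0.81-fold over IgG in sg-Ctrl and 0.79-fold in KO) and of *Robo1* (1.05-fold and 1.67-fold) were weak, covering 3 and 10 kb of *Unc5d* and 2 and 4 kb of *Robo1*.

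H3K4me3 level is given as reads per kb of the TSS peak, scaled by library size. In sg-Ctrl the members ranged from 42.4 for *Plxna4*, a plexin that receives class 3 semaphorins, to 1138 for *Sema3e*, a secreted ligand of PlexinD1, with a median of 285 against 537 over all genes. After *Sema3e* the highest levels were those of *Efnb2* (891), *Nrp1* (812), *Sema6b* (782) and *Efna1* (599). In KO the highest were *Efnb2* (685), *Nrp1* (622), *Efna1* (550) and *Efna5* (536), while *Sema3e* stood at 436. *Efnb2* and *Nrp1*, a transmembrane ephrin and a co-receptor for semaphorins and VEGF, thus stood near the top in both libraries. The widest peak was that of *Nrp2*, the other neuropilin, at 21.2 kb in both libraries with 9130 and 9146 reads, wider than 99.8% of all TSS peaks in sg-Ctrl.

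**Figure D1:**
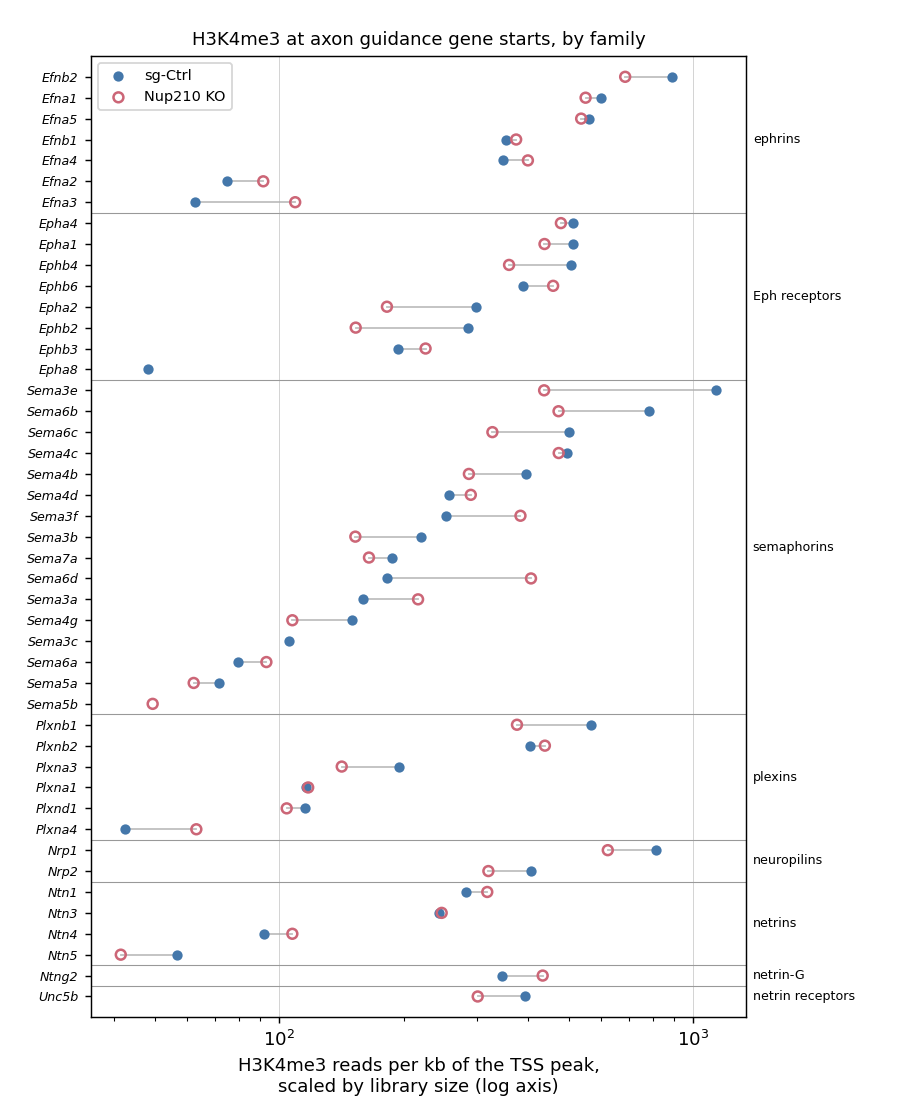
H3K4me3 reads per kb of the TSS peak, scaled by library size (log axis), for the 45 members with a peak in at least 1 library, grouped by family. Filled points are sg-Ctrl and open points Nup210 KO, with 1 library each. The semaphorins span most of the range, and Sema3e and Sema6d have the longest lines in opposite directions.

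Of the 42 members with H3K4me3 in both libraries, the log2 ratio (KO over sg-Ctrl) ranged from -1.38 to 1.16. Its median was -0.11, which is 0.39 above the median of all genes. In all, 34 of 42 members (81%) lay above that median, against 50% of all genes by construction. At least 2-fold lower H3K4me3 in KO was found for 1 member of 42, *Sema3e*, against 9.65% of all genes, and at least 2-fold higher for 1, *Sema6d*, against 0.533%. Relative to the median of all genes, 4 members were at least 2-fold higher (2.21% of all genes) and 0 were at least 2-fold lower (0.927% of all genes).

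This position depends in part on how the mark is measured and on its level. The median TSS peak of all genes was 3600 bp wide in sg-Ctrl and 4200 bp in KO, whereas that of the members was 2800 bp in both. By total scaled reads of the listed TSS peaks, without division by width, the median log2 ratio was -0.16 in members and -0.33 in all genes, and 31 of 42 members (73.8%) lay above the median of all genes. Both measures placed 29 members above and 5 below. Genes with less H3K4me3 had higher ratios throughout, with medians from -0.28 in the lowest of 4 equal classes of genes by level to -0.66 in the highest, and 22 of the 42 members fell in the lowest class. Within their own class, 16 of 22, 7 of 10, 5 of 7 and 2 of 3 members lay above the median by reads per kb, and 14, 6, 5 and 2 by total reads. Relative to the genes of their own chromosome, 31 of 42 lay above the median. The part of level and peak width in the members' position was not tested.

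**Figure D2:**
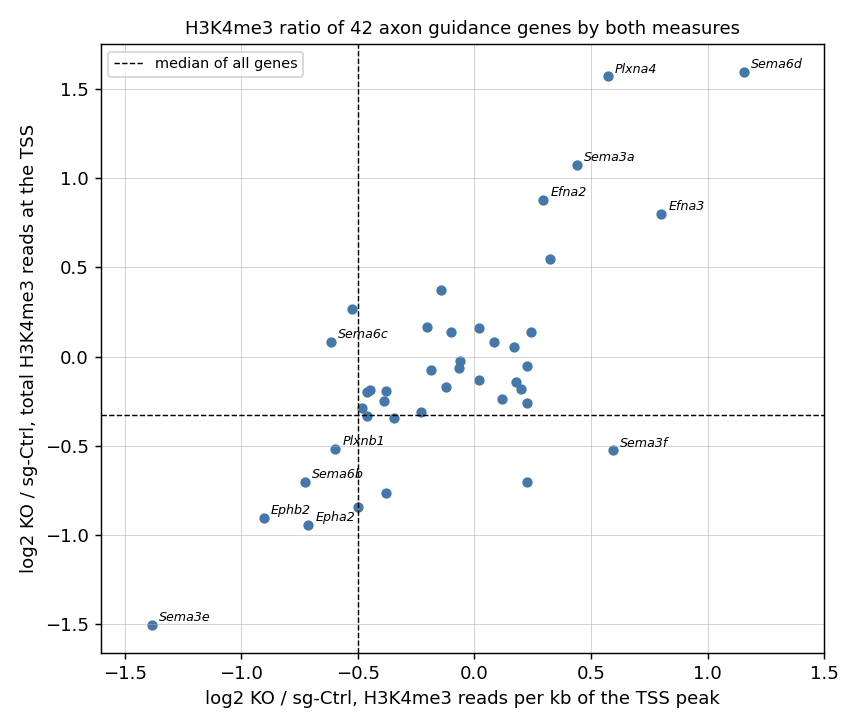
Log2 ratio of H3K4me3 in Nup210 KO over sg-Ctrl for the 42 members with a peak in both libraries, by reads per kb of the TSS peak (x axis) and by total scaled reads at the TSS (y axis), with 1 point per gene. Dashed lines mark the medians of all genes, -0.50 and -0.33, and 29 points lie above both. Another 7 lie on different sides of the lines, Sema3f, Sema6c and Sema6a among them, and Ephb4 lies on the median of reads per kb.

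Among the ligands, *Sema6d*, a transmembrane class 6 semaphorin, had 541 H3K4me3 reads (95% Poisson interval 496 to 589) in sg-Ctrl and 2078 (1990 to 2169) in KO, in peaks of 2800 and 3800 bp. Its log2 ratio was 1.16 (1.02 to 1.29) by reads per kb and 1.60 by total reads, beside medians of -0.50 and -0.33 over all genes. The same start, at position 124610296 of chromosome 2 as the lists give it, carried an 8 kb H3K27me3 peak in sg-Ctrl (chr2:124604001-124612000, 197 reads, 3.19-fold over IgG) that was not listed in KO. *Sema6d* thus had more of the active mark at its start and no listed Polycomb mark in KO.

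*Efna3*, an ephrin anchored to the membrane by a lipid, had H3K4me3 peaks of 2600 bp with 26 IgG reads in both libraries, and 173 reads (148 to 201) in sg-Ctrl against 383 (346 to 423) in KO. The log2 ratio was 0.80 by either measure. Its neighbours on chromosome 3, *Efna4* and *Efna1*, gave 0.20 and -0.12 by reads per kb and -0.18 and -0.17 by total reads. The 3 ephrin genes lie between positions 89271730 and 89338028, so the difference at *Efna3* was not shared along the cluster. *Efna2*, also at a low level, gave 0.29 and 0.88, from 95 and 222 reads.

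*Sema3e* had the largest difference downwards. Its start had 8935 reads (8751 to 9122) in a 7400 bp peak in sg-Ctrl and 4000 (3877 to 4126) in a 6800 bp peak in KO, for a log2 ratio of -1.38 (-1.44 to -1.33) by reads per kb and -1.50 by total reads. It lies on chromosome 5, where the median was -0.72, and it stood 0.66 below that. *Sema3a*, a secreted repellent on the same chromosome, went the other way, with 305 reads (272 to 341) and 817 (762 to 875), a log2 ratio of 0.44 by reads per kb and 1.08 by total reads. The fold over IgG went down instead, from 144 to 75.8, on 2 and 8 IgG reads. The *Sema3a* peaks did not reach its promoter in either library. *Sema3c*, the next class 3 member, had 179 reads (154 to 207) in sg-Ctrl and no listed peak in KO. *Sema3d* had no H3K4me3 in either library.

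*Sema3f*, another secreted semaphorin, had a 12.2 kb peak with 3281 reads in sg-Ctrl and a 5600 bp peak with 2888 reads in KO. Its ratio was 0.59 by reads per kb and -0.52 by total reads, so the direction depends on whether reads are divided by width. The same held for *Sema6c* (-0.62 and 0.08). *Sema6b*, a ligand of class A plexins, was lower by both (-0.73 and -0.70), with 2323 and 1657 reads at the start of its shorter transcript. That peak begins 5.14 kb into the gene, and at the start of the longer transcript KO had peaks of 118 and 41 reads where sg-Ctrl had none listed. *Ntng2*, a lipid-anchored netrin relative that binds a synaptic protein, was higher by both (0.32 and 0.55), with 881 and 1634 reads. Its peaks lay upstream of the listed start and did not reach its promoter in either library.

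Among receptors, *Ephb2* and *Epha2* were lowest. *Ephb2* had 972 reads (912 to 1035) in sg-Ctrl and 660 (611 to 712) in KO in peaks of 3200 bp, a log2 ratio of -0.90 by both measures. *Epha2*, the Eph receptor best known in epithelial tumors, had 3860 and 2552 reads over 12.2 and 10.4 kb, a ratio of -0.71 by reads per kb and -0.94 by total reads. Both lie on chromosome 4, whose median was -0.72, so *Epha2* stood at 0.01 and *Ephb2* at -0.18 relative to their chromosome. *Plxnb1*, the receptor of Sema4d, gave -0.60 and -0.52 from 2166 and 1922 reads on chromosome 9. *Plxna4* gave 0.57 and 1.57 from only 54 (41 to 70) and 204 (177 to 234) reads. At the low end, *Epha8* had 51 reads in sg-Ctrl and no listed peak in KO, and *Sema5b* had 40 reads in KO and no listed peak in sg-Ctrl.

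The netrins, secreted ligands of Dcc and Unc5, differed little by reads per kb, with log2 ratios of 0.17 for *Ntn1*, 0.02 for *Ntn3*, 0.23 for *Ntn4* and -0.45 for *Ntn5*. Total reads gave 0.05, 0.16, -0.26 and -0.19. *Ntn5* rests on 60 and 67 reads. *Nrp1* and *Nrp2* gave -0.39 and -0.34 by reads per kb, and *Unc5b*, the netrin receptor with H3K4me3, gave -0.38, all above the median of all genes. By total reads they gave -0.25, -0.34 and -0.76, and *Nrp2* and *Unc5b* lay below it.

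H3K27me3 is given as the length of the gene body under listed peaks. Over the members it came to 1762 kb in sg-Ctrl and 1966 kb in KO, a ratio of 1.12 beside 1.10 over all genes. A length of 1360 kb was shared, 606 kb was covered in KO alone and 402 kb in sg-Ctrl alone. Of the 26 members with the mark, 0 had it in KO alone, against 15.1% of all genes with the mark, and 7 had it in sg-Ctrl alone (26.9%, against 12.6%). Among the 19 with it in both libraries, 12 had more covered length in KO, 6 less and 1 the same, and the difference was at least 2-fold upwards in 5 (26.3%, against 11.3% of all genes) and at least 2-fold downwards in 2 (10.5%, against 6.95%). Those 5 were *Unc5c*, *Ephb1*, *Plxna2* and the weakly called *Unc5d* and *Robo1*, and those 2 were *Plxna4* and *Epha3*. With an FDR of at most 0.01 *Epha3* had 9 kb in sg-Ctrl and 14 kb in KO, and with a fold of at least 2 it had none in either library. Scaled reads per kb of peak were lower in KO in 15 of the 19, and in 66.2% of all genes. The mark was therefore listed on fewer members in KO but over a greater total length, in a library 3.16 times as deep. The part of depth in these lists was not tested.

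**Figure D3:**
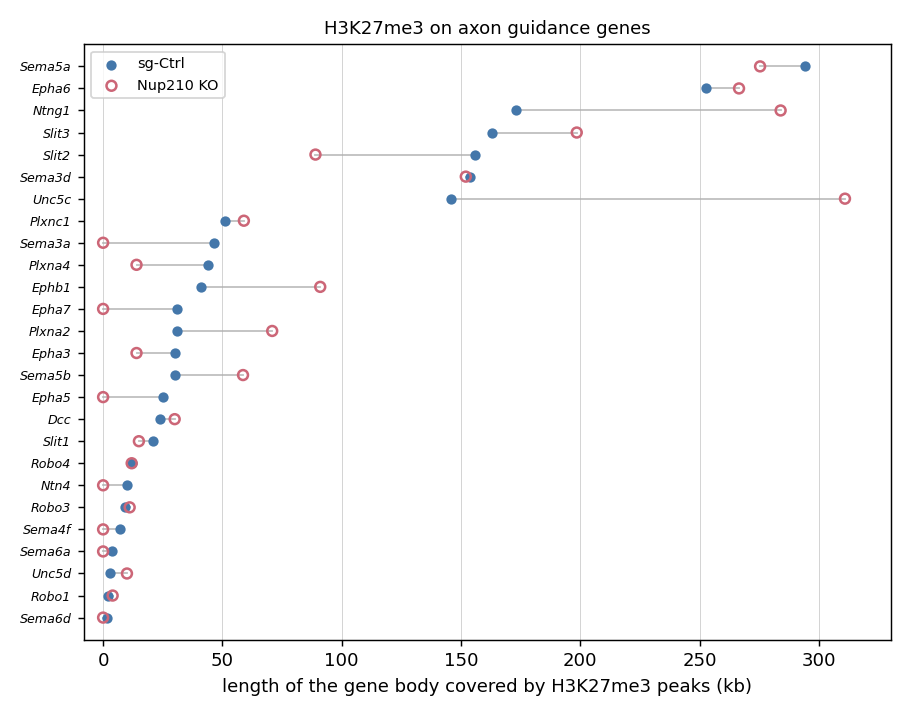
Length of the gene body (kb) under listed H3K27me3 peaks for the 26 members with the mark in sg-Ctrl (filled) or Nup210 KO (open), with 1 library each, ordered by sg-Ctrl. Open points at 0 are members with no listed peak in KO. Unc5c and Ntng1 have the longest lines to the right and Slit2 the longest to the left among members with the mark in both libraries.

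The largest difference upwards was in *Unc5c*, a receptor that mediates repulsion by netrin, with 146 kb covered in sg-Ctrl and 311 kb in KO of a 369 kb gene. In sg-Ctrl its 7 peaks began 170 kb into the gene, while in KO peaks began 5.44 kb from the start, and a peak of 124 kb (chr3:141636001-141760000, 11359 reads, 2.41-fold over IgG) spanned the place of 5 separate sg-Ctrl peaks. *Ntng1*, the paralog of *Ntng2*, had 173 kb covered by 12 peaks in sg-Ctrl and 284 kb by 8 peaks in KO, the widest of 166 kb (chr3:109739001-109905000, 15240 reads, 2.59-fold). In both genes the scaled reads per kb of peak were close, at 36.6 and 33.3 for *Unc5c* and 33.9 and 32.4 for *Ntng1*. More of each gene was under peaks, at a similar density.

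More covered length in KO was also found for *Ephb1*, an Eph receptor (41 and 91 kb), *Plxna2*, a class A plexin (30.9 and 70.9 kb), *Slit3*, a secreted repellent (163 and 199 kb), and *Sema5b* (30 and 58.6 kb). *Sema5b* had its top H3K27me3 peak at 5.40-fold over IgG in sg-Ctrl and 9.34-fold in KO, and a KO peak of 51 kb reached over its start. *Dcc* had 24 and 30 kb covered of a 1097 kb gene on chromosome 18. *Epha6* differed little, with 253 and 267 kb.

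The largest difference downwards among genes with the mark in both libraries was in *Slit2*, the most studied of the Slit ligands, with 156 kb in 9 peaks in sg-Ctrl and 89 kb in 7 peaks in KO. The density was 29.7 and 21.8 scaled reads per kb, and 6 of the 9 and 4 of the 7 peaks had an FDR of at most 0.05. *Slit1* (21 and 15 kb) and *Slit3* went in opposite directions, so the Slits did not share a direction. *Plxna4* had 44 and 14 kb, *Epha3* 30 and 14 kb, and *Sema3d* 154 and 152 kb. *Sema5a*, a transmembrane semaphorin, had less covered length in KO (294 and 275 kb) but more scaled reads per kb of peak (37.3 and 56.4), and when weaker peaks under 2-fold were left out its covered length was higher in KO (191 and 257 kb). Its 175, 48 and 95 kb peaks in sg-Ctrl lay within a single 340 kb peak in KO (chr15:32443001-32783000, 53053 reads, 3.32-fold).

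The 7 members with H3K27me3 in sg-Ctrl alone were *Sema3a* (46.5 kb), *Epha7* (31 kb), *Epha5* (25 kb), *Ntn4* (10 kb), *Sema4f* (7 kb), *Sema6a* (3.87 kb) and *Sema6d* (1.70 kb). Of these, *Epha7* lies on chromosome 4, *Sema3a* and *Epha5* on chromosome 5 and *Sema6a* on chromosome 18, where 30.1%, 22.9% and 28.5% of all genes with the mark had it in sg-Ctrl alone. The longest of these calls were weak, since *Sema3a* and *Epha7* were 0.99-fold and 1.09-fold over IgG over all their peaks and *Epha5* 1.31-fold. The shorter ones were stronger, at 3.75-fold for *Ntn4*, 2.38-fold for *Sema4f*, 18.1-fold for *Sema6a* and 3.19-fold for *Sema6d*. The part of the chromosome in these differences was not tested.

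**Figure D4:**
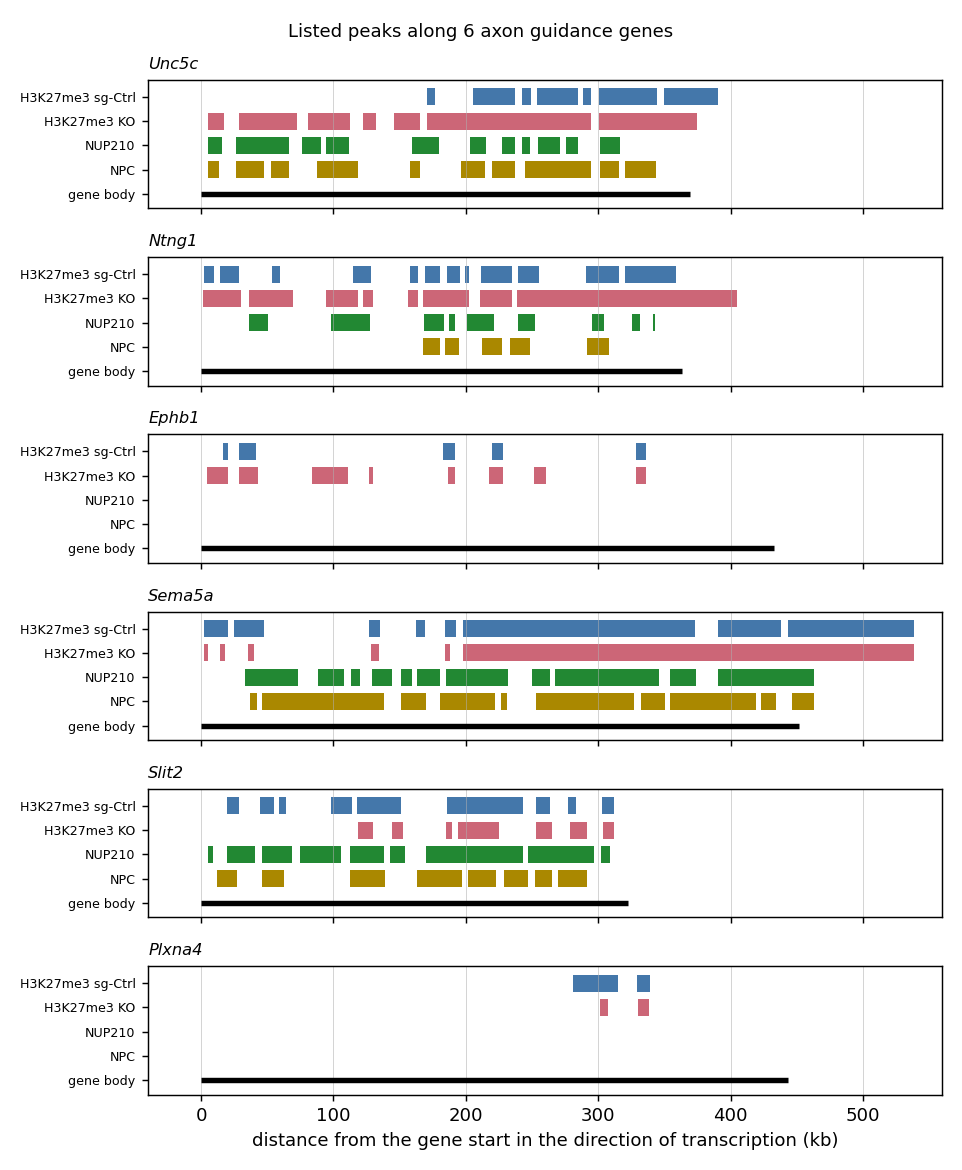
Listed peaks of H3K27me3 in sg-Ctrl and Nup210 KO and of NUP210 and NPC in sg-Ctrl along 6 members, drawn to scale as distance from the gene start (kb) in the direction of transcription, with the gene body in black. In Ntng1 the KO peaks fill gaps between sg-Ctrl peaks. In Unc5c they also cover the first part of the gene, where sg-Ctrl had no listed peak. In Sema5a the KO peaks join into a single 340 kb peak, and in Slit2 and Plxna4 they cover less. Ephb1 and Plxna4 have no NUP210 or NPC peak.

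Both marks on the same gene were found for 6 members in sg-Ctrl (9.23%, against 3.87% of all genes), which were *Ntn4*, *Plxna4*, *Sema3a*, *Sema5a*, *Sema6a* and *Sema6d*, and for 3 in KO (4.62% against 3.22%), which were *Plxna4*, *Sema5a* and *Sema5b*. The peaks of the 2 marks overlapped only in *Sema6a* (3.8 kb) and *Sema6d* (2.6 kb) in sg-Ctrl and in *Sema5b* (0.6 kb) in KO. On the other members they lay apart. Members are longer than other genes, and the part of length in these shares was not tested. In 4 of the 6 members of sg-Ctrl the H3K27me3 peak was in sg-Ctrl alone, while an H3K4me3 peak was listed in both libraries, with log2 ratios by reads per kb of 0.23 for *Ntn4*, 0.44 for *Sema3a*, 0.23 for *Sema6a* and 1.16 for *Sema6d*. By total reads *Ntn4* (-0.26) and *Sema6a* (-0.70) went the other way. An H3K27me3 peak covered the gene start itself in 4 of the 26 members in sg-Ctrl (*Robo3*, *Robo4*, *Sema6a* and *Sema6d*, 15.4% against 55.7% of all genes with the mark) and in 3 of the 19 in KO (*Robo3*, *Robo4* and *Sema5b*, 15.8% against 60.7%). Members with the mark are long, and the part of length in this was not tested. *Robo3* and *Robo4* are neighbours and share 1 KO peak (chr9:37350001-37417000), so they are not separate observations there. On *Unc5c*, *Ntng1* and *Slit2* no listed peak reached the promoter printed above.

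NUP210 peaks fell on 22 of the 65 members (33.8%, against 33.9% of all genes) and NPC peaks on 21 (32.3% against 30.8%), and 20 members had both. These signals are low over IgG. The 183 NUP210 peaks on members had a median fold of 1.20, and 44 had an FDR above 0.05, while the 164 NPC peaks had a median of 1.10, and 84 had an FDR above 0.05. Coverage was nevertheless wide. NUP210 peaks covered 38.7% of the members' 10.9 Mb and NPC peaks 34.6%, with 72.2% of the NUP210 length inside NPC peaks and 80.9% of the NPC length inside NUP210 peaks.

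NUP210 coverage went with length. Of the members, 0 of 18 under 20 kb and 1 of 16 between 20 and 100 kb had a NUP210 peak, against 22.3% and 39.4% of all genes of those lengths, and the 1 was *Efnb2*. Between 100 and 300 kb it was 9 of 17 (52.9% against 63.0%) and over 300 kb 12 of 14 (85.7% against 84.6%). The most covered were *Epha6* with 644 kb, *Dcc* with 397 kb, *Robo2* with 382 kb, *Sema5a* with 327 kb and *Epha5* with 299 kb. For NPC they were *Epha6* (661 kb), *Sema5a* (336 kb) and *Robo2* (334 kb). The highest NUP210 folds were 3.07 in *Ntng1* (chr3:109801001-109802000, 62 reads against 20 of IgG), 2.46 in *Dcc*, 2.36 in *Epha6*, 2.30 in *Slit2* and 2.15 in *Epha5*. The highest NPC folds were 1.92 in *Robo1*, 1.63 in *Dcc* and 1.62 in *Nrp1*. Of the members over 300 kb, *Ephb1* and *Plxna4* had no NUP210 peak and *Slit3* had 8 kb covered.

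The class 3 semaphorins of chromosome 5 were widely covered. *Sema3d*, *Sema3a*, *Sema3e* and *Sema3c*, which lie between positions 12383166 and 17730267, had 88.9%, 96.0%, 92.7% and 76.8% of their length under NUP210 peaks and 75.8%, 87.9%, 95.7% and 60.5% under NPC peaks. Their folds over IgG were low, from 1.08 to 1.23 for NUP210 and 0.98 to 1.07 for NPC over all peaks. NUP210 peaks reached over the start of 2 of the 22 members with NUP210, *Sema3c* and *Sema3e* (9.09%, against 46.3% of all genes with NUP210). *Sema3c* had no H3K4me3 listed in KO and *Sema3e* the lowest H3K4me3 ratio of the members, while *Sema3a*, with as much of its length covered, stood above the median of all genes. The relation of the marks to NUP210 coverage was not tested.

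**Figure D5:**
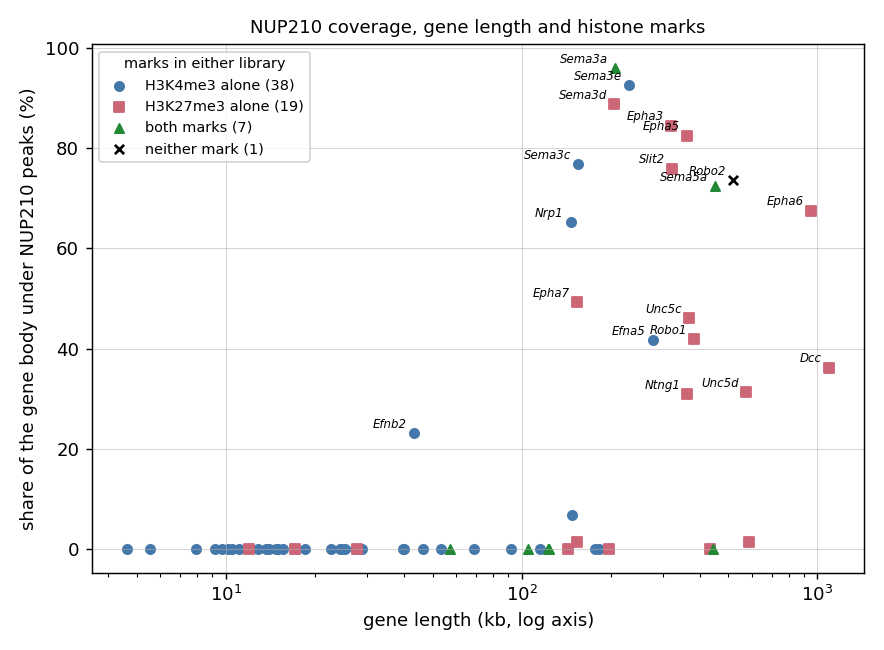
Share of the gene body under NUP210 peaks in sg-Ctrl (%) against gene length (kb, log axis) for the 65 members, with colour and shape for the histone marks listed in either library. All members under 20 kb lie at 0, and the class 3 semaphorins Sema3a, Sema3e and Sema3d lie highest.

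On the members, 57.2% of the H3K27me3 length of sg-Ctrl and 49.1% of that of KO lay under NUP210 peaks. Of the length with H3K27me3 in KO alone, 32.3% lay under NUP210 peaks, and of the length with it in sg-Ctrl alone, 59.6% did, beside 38.7% of the gene bodies. *Ephb1*, *Plxna2* and *Sema5b*, with more covered length in KO, had no NUP210 peak, while *Unc5c* and *Ntng1* had 170 and 112 kb under NUP210 peaks. *Slit2* and *Plxna4*, with less, had 245 kb and none.

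Downstream and accessory genes of the pathway were read from a list of 57, of which 7 had no entry in any list. Of the other 50, 82% had H3K4me3 in each library (67.1% and 67% of all genes), 24% and 20% had H3K27me3 in sg-Ctrl and KO (26.8% and 27.6%), 32% had NUP210 (33.9%) and 40% had NPC (30.8%). Of the 40 with H3K4me3 in both libraries, 4 were at least 2-fold lower in KO, close to the share of all genes (9.65%). The median log2 ratio of the 40 was -0.33, and 25 lay above the median of all genes. The 4 lower genes were *Rock1* (-1.54, chromosome 18), *Srgap3* (-1.15, chromosome 6), *Cdc42* (-1.10, chromosome 4) and *Rac1* (-1.08, chromosome 5). Cdc42 and Rac1 are small GTPases that act below many guidance receptors, and Rock1 is a kinase that acts on the actin cytoskeleton. *Rhoa*, another small GTPase, gave -0.48 from 7255 and 6426 reads. Among receptors and adhesion proteins of the list, *Dscam*, an adhesion receptor, had 144 and 253 kb under H3K27me3 in sg-Ctrl and KO and its paralog *Dscaml1* had 71 and 235 kb. Other genes of the list had less covered length in KO. Among them were *Dpysl5* on chromosome 5 (49 kb and no listed peak) and *Ablim3* on chromosome 18 (38.9 and 7 kb). *Boc*, a co-receptor for Sonic hedgehog, and *Rgma*, a ligand of neogenin, had higher H3K4me3 in KO, at 0.96 (207 and 683 reads) and 0.94 (43 and 341 reads). Their H3K27me3 covered 5.87 and 6.87 kb for *Boc* and 12.5 and 7 kb for *Rgma*.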

How the data were processed

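The 6 ChIP-seq libraries of 4T1 cells, 1 for each condition, were read as peak lists. Peaks had been called by the authors with SICER, using IgG as the control and a window of 200 bp (H3K4me3) or 1000 bp (H3K27me3, NUP210), and paired with RefSeq genes. The window for NPC and the aligner are not given in the sources used here. The authors deposited raw counts of reads per peak in ChIP and in IgG, the p-value and FDR, and the fold over IgG, a ratio that takes library size into account. IgG samples entered only through these counts. RNA-seq (4 samples) was not used here, and 1 gene of the pathway list is not reported here.

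Entries that repeat a peak were collapsed. The library ratio to IgG was recovered from counts and folds, and reads were divided by it. H3K4me3 was taken from the TSS peak with most reads per kb, and H3K27me3, NUP210 and NPC as length covered within the gene body. A call means a listed peak, or a 2-fold difference. Positions are GRCm38. With 1 library per condition no test was possible, and total depth is known only through these ratios. Intervals of reads are exact 95% Poisson intervals. Those of log2 ratios are 95% normal approximations from the same read counts. Both cover counting error only. Alternatives were an FDR of at most 0.01, a fold over IgG of at least 2, peaks covering at least 5 kb or 10% of the gene, at least 100 reads, and other H3K4me3 measures and scalings. The steps were tested on simulated data.

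The members and gene lists were chosen with earlier results of these data known. Members named are those with the largest differences in H3K27me3 covered length and in H3K4me3 (at least 100 reads), those listed in 1 library alone, those with the highest NUP210 and NPC values, those with both marks, and all members of the small families; others are named as neighbours or relatives of these and were chosen after their values were seen. Python 3.11.15, numpy, pandas, scipy and matplotlib were used.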

Additional observations from a re-analysis of the deposited data

How the results depend on the processing

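No replicate exists for any ChIP-seq condition, and 1 clone and 1 library stand behind every KO value. No paired analysis was possible because none of the samples used carries a replicate number and RNA-seq, whose samples carry them, was not used. NUP210 and NPC calls are limited by low folds over IgG, and H3K4me3 values under 100 reads by counting. Where a fold over IgG of 2 or more was required, NUP210 fell on 6 members and NPC on 0, and the ratio of H3K27me3 covered length was 1.31. Members with H3K27me3 in KO alone numbered 1 with peaks of an FDR of at most 0.01, and 1 when peaks had to cover at least 5 kb or 10% of the gene body.

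Scaling H3K4me3 by the reads of shared peaks added 0.42 to every log2 ratio. The members' median then was 0.31, with 0 members at least 2-fold lower and 3 higher. Taken relative to each member's own chromosome, a choice made after seeing the data, the median was 0.39, with 0 lower and 5 higher. The authors' fold gave 3 lower and 5 higher, and total reads 3 higher. Shares of all genes called under the alternatives of this section were not computed, so whether these counts stand out cannot be told. Without chromosomes 4, 5 and 18, also chosen after seeing the data, 0 members were 2-fold lower in H3K4me3, 3 had H3K27me3 in sg-Ctrl alone, and the ratio of covered length was 1.28. Of the other alternatives for the members as a group, all kept their direction and stayed within the limits set. For single named members, 75 values stayed and 45 moved under an alternative, and 0 turned a 2-fold call around. By total reads *Sema3f* (-0.52) and *Sema6c* (0.08) changed sign, as did *Sema3a* by the authors' fold (-0.92). Covered length turned from less to more in KO for *Epha3* (9 and 14 kb, FDR of at most 0.01) and *Sema5a* (191 and 257 kb, fold of at least 2). The causes were not tested.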
